A study of Bos taurus with 6 samples.

Results

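Genes that p53 can switch on were followed in bovine blastocysts of high and low cryosurvival. These were the cell cycle and stress genes CDKN1A, PLK2, GADD45A and GADD45B, the p53 inhibitor MDM2 and the membrane protein gene PERP. They were taken by gene name, and all 6 were found among the 9537 genes of the table. The names were chosen by role in the pathway with measured values in view, namely the CPM of the 6 libraries and the calls in the authors' deposited table, so the difference between the groups is described for them and supports nothing by itself.

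The embryos were produced in vitro in SOFaaci, a culture medium for bovine embryos, and RNA of blastocysts was sequenced. The labels divide the 6 libraries into 3 of embryos with high and 3 of embryos with low survival after vitrification, a rapid form of freezing without ice. Titles of the high libraries carry the code V and those of the low libraries NV. The labels do not explain these codes, and a difference they may mark cannot be told apart from cryosurvival. No genotype, breed or agent that differs between the groups is named, and the time of RNA extraction relative to vitrification is not stated. Nor do the labels say whether libraries came from separate cultures or how many embryos each held, so spreads between libraries may be technical.

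p53 is a transcription factor that is held low in unstressed cells because MDM2 marks it for degradation. When DNA damage or other stress stabilises it, p53 raises the transcription of genes that stop the cell cycle, repair DNA or start cell death, and of MDM2 itself, which closes a feedback loop. This control acts mainly on the protein, which RNA sequencing does not measure. In blastocysts the pathway is best known from responses to culture stress and DNA damage.

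The libraries held 14651477 to 19467022 reads in the table. Values are CPM, reads scaled to a common library size, and CPM of different genes are not set against each other because they are not corrected for length. Low library 2 had the fewest reads and stood apart from the rest: it was the lowest or the highest of the 6 libraries for 69.9% of genes, against 16.9% to 43.9% for each of the others. Results are therefore also given without it. All 5 trophectoderm markers (CDX2, GATA3, KRT8, KRT18 and TFAP2C) and all 3 inner cell mass markers (POU5F1, NANOG and SOX2) were measured, with summed levels of 25710 to 35640 CPM and 678.6 to 988.9 CPM in the low libraries and of 30050 to 33210 CPM and 759.3 to 863.1 CPM in the high ones. The inner cell mass sum is carried mostly by POU5F1, and the trophectoderm sum mostly by KRT8 and KRT18. The log2(CPM + 1) differences, low minus high, of CDX2, GATA3, KRT8, KRT18 and TFAP2C were -0.28, -0.13, -0.02, -0.25 and -0.12. TFAP2C did not overlap between the groups, at 250.3 to 267.4 CPM in low and 278.3 to 286.4 CPM in high libraries (limma adjusted p = 0.78). NANOG, the pluripotency factor gene, did not overlap between the groups. It was at 22.1, 12.2 and 14.3 CPM in low libraries 1, 2 and 3 and 47.3, 31.1 and 37.6 CPM in the high ones. Its log2(CPM + 1) difference was -1.23 (limma adjusted p = 0.164), and its part in the differences of the 6 genes was not tested. The other inner cell mass markers overlapped between the groups, with differences of 0.004 for POU5F1 and 0.26 for SOX2. Of 9 cumulus and granulosa cell markers 4 were measured, HSD3B1, CYP11A1, STAR and FSHR. Their summed level overlapped between the groups, at 379.1 to 522.7 CPM in low and 406 to 529.7 CPM in high libraries. That sum is carried mostly by HSD3B1 and CYP11A1. The log2(CPM + 1) differences of the 4, in that order, were -0.20, 0.37, -0.19 and -0.21. Among these 4, FSHR did not overlap, at 7.06 to 8.14 CPM in low and 8.63 to 9.04 CPM in high libraries (limma adjusted p = 0.577). Any part of TFAP2C or FSHR in the differences of the 6 genes was not tested. The 3 blood cell and 3 sperm markers had no row among the genes analysed.

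CDKN1A and PLK2 were more than 2-fold higher in low than in high cryosurvival embryos, MDM2 was higher with 1 low library near the high level, GADD45A was slightly higher, and GADD45B and PERP overlapped between the groups. In bulk RNA of whole embryos, more cells expressing a gene and more RNA per cell cannot be told apart.

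CDKN1A encodes p21, which binds and blocks cyclin-dependent kinases and is the main arm through which p53 halts cells in G1. It was at 40.3, 45.0 and 38.3 CPM in low libraries 1, 2 and 3, from 807, 599 and 731 reads. In high libraries 1, 2 and 3 it was at 19.3, 17.0 and 18.03 CPM, from 344, 324 and 325 reads. Every low library was above every high one, and the lowest low library was 1.99 times the highest high library. The group means were 41.2 ± 3.45 and 18.1 ± 1.14 CPM (SD, n = 3 each), a ratio of 2.28, and the difference in log2(CPM + 1), low minus high, was 1.14 with a standard error of 0.12. Low library 2 was the highest of the 6, and without it the ratio was 2.17.

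PLK2 encodes a polo-like kinase that acts in G1 and in the duplication of centrioles. It was at 85.0, 76.0 and 75.7 CPM in low libraries 1, 2 and 3 and at 32.0, 27.9 and 32.3 CPM in the high ones. The groups were farther apart than for CDKN1A in relation to their level, since the lowest low library was 2.34 times the highest high library. Of all 9537 genes only 8, PLK2 among them, had a ratio of at least that size. The means were 78.9 ± 5.29 and 30.7 ± 2.42 CPM (SD, n = 3 each), a ratio of 2.57, and the log2 difference of 1.33 (standard error 0.12) ranked 12th from the top among all genes. CDKN1A ranked 26th. The other polo-like kinase genes had smaller differences. PLK1, the mitotic kinase of the family, was at 157.9 to 176.1 CPM in low and 164.5 to 170.5 CPM in high libraries. PLK3 was at 26.4 to 27.0 CPM in low and 20.5 to 25.5 CPM in high libraries, without overlap, and PLK4, the centriole duplication kinase, was at 29.7 to 40.9 against 39.8 to 47.1 CPM. Their log2 differences of 0.01, 0.19 and -0.29 compare with 1.33 for PLK2, a contrast for which no test was made. The PLK4 difference was -0.17 without low library 2 and that of PLK3 0.09 without high library 2.

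GADD45A and GADD45B encode small stress proteins that bind PCNA, p21 and stress kinases. GADD45A is the classical p53 target of the pair, while GADD45B is better known as a target of NF-kappaB and TGF-beta signals. GADD45A was at 97.6, 123.9 and 102.4 CPM in low libraries 1, 2 and 3 and at 86.6, 91.5 and 84.4 CPM in the high ones. The groups did not overlap, but low library 1 was only 1.07 times the highest high library. The ratio of the means was 1.23, from 107.9 ± 14.0 and 87.5 ± 3.65 CPM (SD, n = 3 each), and 1.14 without low library 2, with log2 differences of 0.29 and 0.19. GADD45B was at 52.0, 80.8 and 70.5 CPM in low libraries 1, 2 and 3 and at 62.0, 55.7 and 59.1 CPM in the high ones. Low library 1 was the lowest of the 6 and low library 2 the highest, so the low group spanned the whole high group. Its log2 difference of 0.18 (standard error 0.18) was 0.04 without low library 2 and 0.35 without low library 1.

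MDM2 encodes the ubiquitin ligase that degrades p53. It was at 86.1, 50.4 and 88.1 CPM in low libraries 1, 2 and 3 and at 45.7, 49.1 and 44.3 CPM in the high ones. Low libraries 1 and 3 were 1.86 and 1.90 times the high mean, whereas low library 2 was 1.09 times that mean and 1.03 times the highest high library. The spread in the low group, 28.4% of its mean, was far above the 2.71% that counting reads alone gives. The means were 74.9 ± 21.2 and 46.4 ± 2.51 CPM (SD, n = 3 each). The ratio was 1.62 with all libraries and 1.88 without low library 2, and the log2 difference 0.64 and 0.90. MDM2 was thus the 1 member in which low library 2 was the lowest of its group by a wide margin, while in CDKN1A, GADD45A, GADD45B and PERP it was the highest of all 6 libraries.

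PERP encodes a membrane protein of desmosomes that was first described as an effector of p53-dependent cell death. It was at 297.9, 380.7 and 280.9 CPM in low libraries 1, 2 and 3 and at 287.1, 307.0 and 281.9 CPM in the high ones. Low library 2 alone lay above the high group, and low library 3 was the lowest of all 6. The log2 difference was 0.12 (standard error 0.15) and became -0.01 without low library 2 and 0.21 without low library 3. TP63, a transcription factor gene whose product drives PERP in epithelia, was at only 0.751 to 2.56 CPM in low and 1.61 to 1.96 CPM in high libraries. Of the desmosome partners of PERP, 6 of 10 measured were higher and 4 lower in low, with a median log2 difference of 0.06. By limma 0 of these passed an adjusted p of 0.05, against 0% of all genes. Low library 2 went the other way from low libraries 1 and 3 there: the median of the 10 genes relative to the high mean was -0.50 in library 2 and 0.49 and 0.12 in libraries 1 and 3. EVPL, the envoplakin gene, was named after its value was seen. It had the 1 unadjusted limma p below 0.05, against 5.7% of all genes in its direction. EVPL was lower in low, at 118.3, 86.6 and 81.5 CPM in low libraries 1, 2 and 3 and 114.6, 148.1 and 137.4 CPM in the high ones (difference -0.49, limma adjusted p = 0.362). DSP, the desmoplakin gene, was at 1664, 586.1 and 1188 CPM in low libraries 1, 2 and 3 and at 1042 to 1241 CPM in the high ones. JUP, which encodes plakoglobin, was at 754.2, 250.0 and 614.3 CPM in low and 332.9 to 565.7 CPM in high libraries. PKP3, a plakophilin gene, was like PERP highest in low library 2, at 88.5 to 114.9 CPM in low and 76.3 to 87.4 CPM in high libraries. Without low library 2 limma called 1 of the 10 genes higher in low, against 8.15% of all genes. That gene was DSG2, a desmoglein gene named after its value was seen. In low library 2 DSG2 was at 167.9 CPM, within its high range of 166 to 224.9 CPM.

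**Figure D1:**
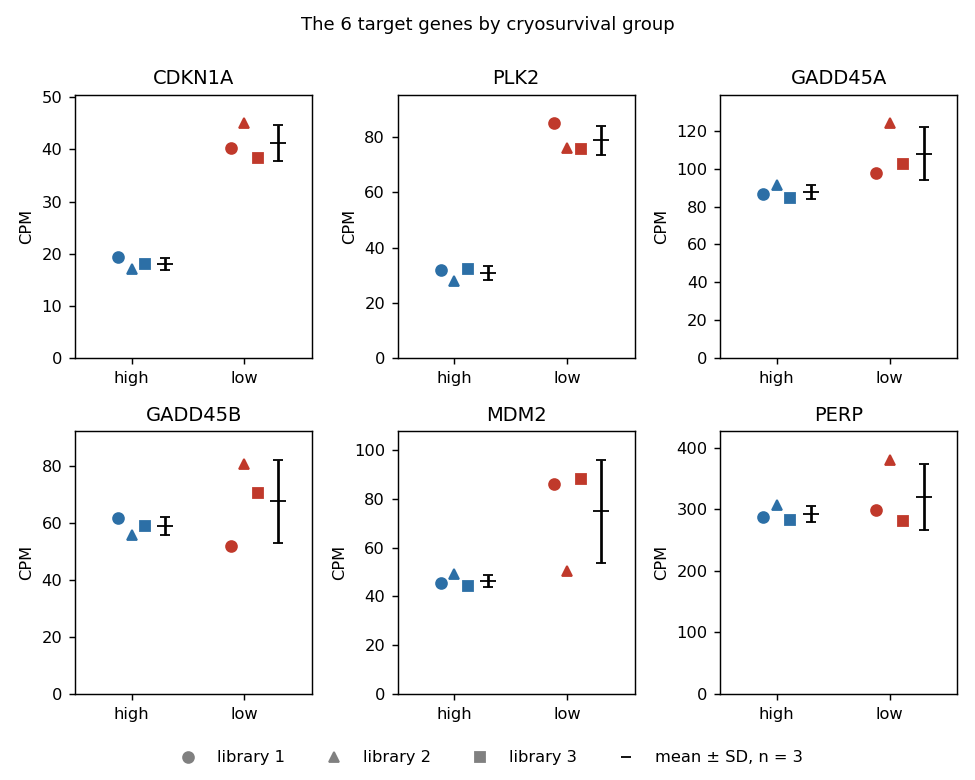
CPM of the 6 target genes in each library (points, shape by library number; high cryosurvival blue, low cryosurvival red), with the mean and SD of 3 libraries per group; each axis starts at 0. CDKN1A and PLK2 are separated by a wide gap, at 38.3 to 45.0 against 17.0 to 19.3 CPM and 75.7 to 85.0 against 27.9 to 32.3 CPM, while low library 2 of MDM2 sits beside the high group.

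In the authors' deposited table CDKN1A and PLK2 were called higher in low cryosurvival embryos, with adjusted p values listed as 0 at 3 decimals, against 0.912% of all genes called in that direction. The remaining 4 members had adjusted p values of 0.154 (MDM2), 0.782 (GADD45A), 0.962 (GADD45B) and 0.989 (PERP) in the authors' deposited table. In the limma fit over all genes 0 members passed an adjusted p of 0.05, against 0% of all genes; voom on the recovered reads also called 0. An unadjusted limma p below 0.05 was reached by 3 members, CDKN1A, PLK2 and MDM2, against 6.27% of all genes in that direction. The limma adjusted p was 0.0519 for both CDKN1A and PLK2 and 0.338 for MDM2. Without low library 2 it was 0.0113 for each of these 3, against 8.15% of all genes called higher in low. Leaving out any 1 of the other 5 libraries raised it to between 0.216 and 0.479 for CDKN1A and between 0.216 and 0.428 for PLK2. It was 0.0528 for both with median scaling, 0.0603 with a pseudocount of 5, 0.0841 with voom and 0.495 with the replicate number as a block. With only genes of at least 5 CPM on average in the fit, CDKN1A (0.0449) and PLK2 (0.0443) passed, against 0.0629% of genes, and with a pseudocount of 0.1 PLK2 passed (0.0452). The low group lay wholly above the high group in 4 of the 6 members, against 10.4% of all genes. These counts come from the contrast with which the members were chosen.

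**Figure D2:**
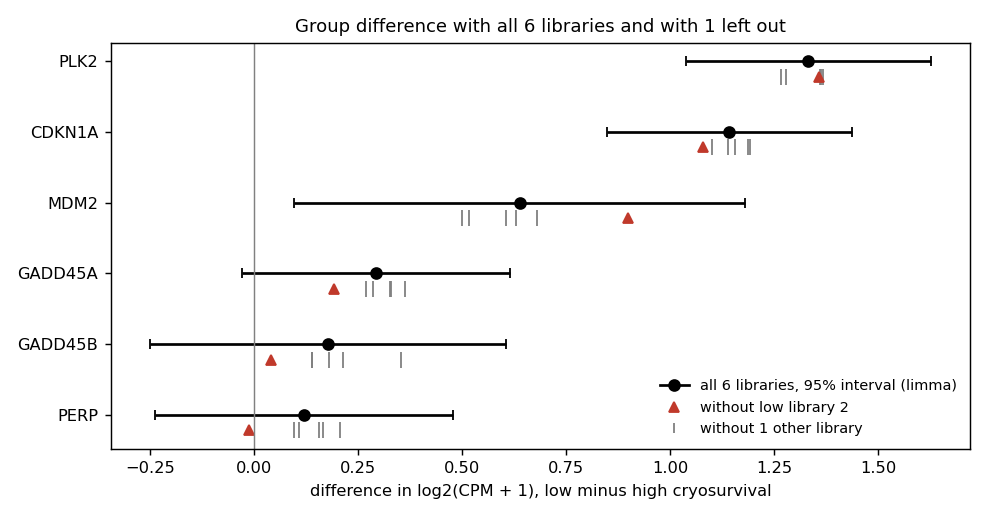
Difference in log2(CPM + 1), low minus high cryosurvival, of the 6 target genes, with all 6 libraries (black, with the 95% interval from limma), without low library 2 (red triangle) and without each of the other libraries (grey bars). PLK2 stays between 1.27 and 1.37 and CDKN1A between 1.08 and 1.19, MDM2 moves from 0.64 to 0.90 without low library 2, and PERP moves from 0.12 to -0.01.

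The wider pathway was followed in 9 lists sorted by role, which held 111 measured genes besides the members, with a few genes in more than 1 list. In low cryosurvival embryos 57 were higher and 54 were lower, with a median log2 difference of 0.0065, beside 0.0002 over all genes. By limma 0 of them passed an adjusted p of 0.05, also by voom, against 0% of all genes in both fits. An unadjusted limma p below 0.05 was reached by 8 higher and 3 lower, against 6.27% and 5.7% of all genes. CDK6 was the 1 gene of the 111 called in the authors' deposited table. It was called higher in low, against 0.912% of all genes in that direction. Without low library 2 limma called 9 of the 111 genes higher and 6 lower, against 8.15% and 5.48% of all genes.

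Other growth arrest targets of p53 were higher in low in 12 of 14 measured genes, against 50% of all genes, with a median log2 difference of 0.21. By limma 0 passed, against 0% of all genes, and 4 had an unadjusted p below 0.05, against 6.27%. In 6 the low group lay above the high group, against 10.4% of all genes. CCNG1, the cyclin G1 gene and a direct p53 target, was at 306.1, 260.7 and 276.5 CPM in low libraries 1, 2 and 3 and at 219.8, 206.2 and 199.8 CPM in the high ones. Its log2 difference was 0.43 (limma adjusted p = 0.248), and without low library 2 it was 0.48 (0.0314). NDRG1, a stress-responsive gene induced by hypoxia as well as p53, was at 57.2, 38.6 and 61.3 CPM in low libraries 1, 2 and 3 and at 33.0 to 33.7 CPM in the high ones. As in MDM2, low library 2 was nearest to the high group. The NDRG1 difference was 0.61 (limma adjusted p = 0.277) and 0.81 without low library 2 (0.0114). GDF15, a secreted stress cytokine, had only 13 to 42 reads per library, at 1.50, 3.15 and 1.57 CPM in low libraries 1, 2 and 3 and 0.721 to 0.896 CPM in high libraries. SFN, the 14-3-3 sigma gene, was at 942.8 to 1444 CPM in low and 1010 to 1147 CPM in high libraries, with a log2 difference of 0.10 (limma adjusted p = 0.916) that was -0.06 without low library 2 and 0.25 without low library 3. Without low library 2 limma called CCNG1, GDF15, NDRG1 and SESN2 higher, against 8.15% of all genes. It called GADD45G, the third GADD45 gene, lower, against 5.48%. SESN2 and GADD45G were named after their values were seen. In low library 2 SESN2 was at 20.05 CPM, below the high libraries at 31.5 to 45.7 CPM. GADD45G was at 30.0 CPM there, above the high libraries at 22.2 to 25.6 CPM. With all libraries the limma adjusted p was 0.918 for SESN2 and 0.763 for GADD45G.

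Apoptosis targets were higher in low in 9 of 12 measured genes, against 50% of all genes. Their median log2 difference was 0.14, and 0.02 without low library 2. By limma 0 passed, against 0% of all genes. An unadjusted limma p below 0.05 was reached by 2, both higher in low, against 6.27% of all genes in that direction. TNFRSF10D encodes a member of the TRAIL receptor family. It was at 16.4, 9.99 and 15.3 CPM in low libraries 1, 2 and 3 and at 7.71 to 8.57 CPM in the high ones. Its log2 difference was 0.69 (limma adjusted p = 0.244), and 0.90 without low library 2 (0.0113). BAX, the pore-forming death protein gene, was at 180.1, 271.8 and 199.3 CPM in low libraries 1, 2 and 3 and overlapped with the high libraries at 178.8 to 222.4 CPM. EI24, a p53-induced gene, was at 154.1 to 199.9 CPM in low and 145.7 to 157.5 CPM in high libraries. Without low library 2 limma called TNFRSF10D and APAF1 higher and SIVA1 and CASP6 lower, against 8.15% and 5.48% of all genes. The last 3 were named after their values were seen. In low library 2 SIVA1 was at 67.0 CPM, above the high libraries at 30.4 to 32.3 CPM. CASP6 was at 80.1 CPM there, against 68.6 to 76.0 CPM in high libraries. APAF1 in low library 2 was at 4.21 CPM, within its high range of 3.94 to 5.14 CPM.

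Repair and metabolism targets pointed in no common direction, with 3 of 9 measured genes higher, against 50% of all genes, and 6 lower. Their median log2 difference was -0.04. XPC, a sensor of nucleotide excision repair, was at 135.3, 108.2 and 142.6 CPM in low libraries 1, 2 and 3 and at 146.2 to 166.6 CPM in the high ones (difference -0.30, limma adjusted p = 0.508), and the difference was -0.18 without low library 2. POLH, the translesion polymerase eta gene, was at 11.2 to 14.2 CPM in low and 14.8 to 15.2 CPM in high libraries, also without overlap, and FDXR, ferredoxin reductase, overlapped at 112.9 to 140.7 against 104.4 to 129.8 CPM. Of the regulators of p53, 6 of 17 measured genes were higher, against 50% of all genes, and 11 were lower. Their median was -0.09, and 0.04 without low library 2. PRKDC, the catalytic subunit of the DNA-dependent protein kinase, was at 58.7, 23.4 and 50.8 CPM in low libraries 1, 2 and 3 and at 59.8 to 67.8 CPM in the high ones. Its log2 difference of -0.59 was -0.20 without low library 2 (limma adjusted p = 0.575 and 0.238). RFWD2, the gene of the p53 ubiquitin ligase COP1, was at 83.1 to 84.1 CPM in low and 75.6 to 80.2 CPM in high libraries, a log2 difference of 0.11. The ribosomal protein genes RPL5 and RPL11, whose free proteins inhibit MDM2, overlapped between the groups, at 1104 to 1318 against 1271 to 1512 CPM and 1351 to 2320 against 1531 to 1816 CPM.

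**Figure D3:**
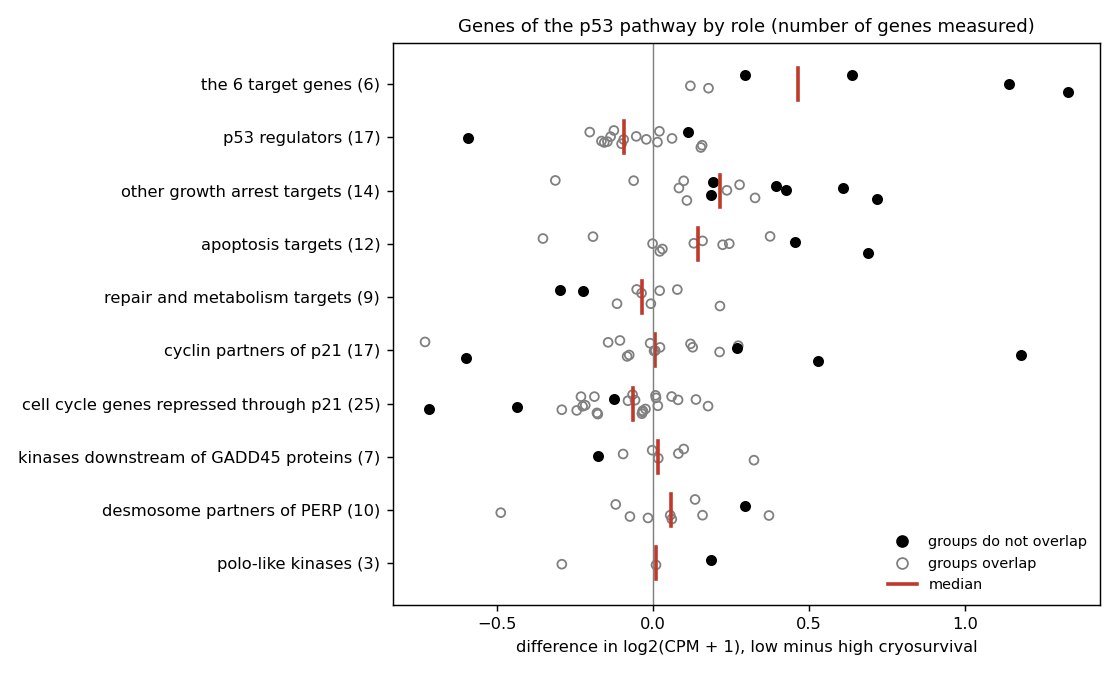
Difference in log2(CPM + 1), low minus high cryosurvival, of each measured gene of the p53 pathway by role; filled points mark genes whose groups do not overlap, and red bars the median of each list. The 14 other growth arrest targets have a median of 0.21 with 12 genes above 0, against 50% of all genes. The 25 cell cycle genes have a median of -0.07.

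The p21 protein acts on cyclin-dependent kinases and, through RB family proteins, lowers the transcription of cell cycle genes. Among 17 measured cyclins, kinases, inhibitors and RB family genes, 10 were higher in low, against 50% of all genes, and 7 were lower. The median log2 difference was 0.007. CDK6, a G1 kinase, was at 6.29, 10.1 and 7.85 CPM in low libraries 1, 2 and 3 and at 2.19, 2.99 and 3.83 CPM in the high ones, without overlap. Its log2 difference was 1.18 (limma adjusted p = 0.145), and its adjusted p in the authors' deposited table was 0.005. CCND1, the cyclin D1 gene whose product pairs with CDK6, was at 3.72 to 4.39 CPM in low and 2.05 to 2.99 CPM in high libraries, a difference of 0.53 (limma adjusted p = 0.232). RBL2, the RB relative p130, was lower, at 6.49, 3.31 and 5.97 CPM in low libraries 1, 2 and 3 and at 7.99 to 8.40 CPM in the high ones (difference -0.60, limma adjusted p = 0.347), and the difference was -0.35 without low library 2. CDKN2D, a kinase inhibitor gene, was named after its value was seen. It was the third gene of this list with the low group above the high group, against 10.4% of all genes. PCNA, the replication clamp gene, and CCNA2, the cyclin A2 gene, overlapped between groups, at 135.2 to 244.4 against 153.2 to 176.4 CPM and 105.4 to 137.2 against 122.7 to 134.5 CPM. Without low library 2 limma called CDK6 and CCND1 higher and RBL2 and CDKN1C lower, against 8.15% and 5.48% of all genes. CDKN1C, the p57 gene, was named after its value was seen. In low library 2 it was at 7.81 CPM, within its high range of 7.17 to 9.49 CPM.

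Cell cycle genes known to be repressed through p21 were higher in low in 7 of 25 measured genes, against 50% of all genes, and lower in 18. Their median log2 difference was -0.07, and -0.04 without low library 2. Any part of p21 in these differences was not tested. By limma 0 passed, against 0% of all genes, and 1 had an unadjusted p below 0.05, against 5.7% in its direction. That gene, E2F1, which encodes an S phase transcription factor, was at 38.2, 40.1 and 42.1 CPM in low libraries 1, 2 and 3 and at 55.6, 52.9 and 55.6 CPM in the high ones. Its groups did not overlap, and its log2 difference was -0.44 with all libraries and without low library 2 (limma adjusted p = 0.213 and 0.0333). LIN54, a subunit of the DREAM repressor complex, rested on low library 2, with 21.9, 6.68 and 24.1 CPM in low libraries 1, 2 and 3 and 24.3 to 28.0 CPM in the high ones. Its difference of -0.72 was -0.17 without that library. MCM7, a replication helicase gene named after its value was seen, was the third gene with the high group above the low group, against 10.6% of all genes. MYBL2, a cell cycle transcription factor gene, and MCM5, a replication helicase gene, overlapped at 423.4 to 581.5 against 536.3 to 622.7 CPM and 312.1 to 406.0 against 334.6 to 426.3 CPM.

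Stress kinases on which GADD45 proteins act were nearly level, with 4 of 7 measured genes higher, 3 lower and a median log2 difference of 0.02. The kinase genes MAP2K4 and MAP2K3 were at 100.3 to 151.3 against 127.3 to 131.4 CPM and 91.6 to 125.7 against 94.0 to 98.9 CPM in low and high libraries. MAPK13, a p38 kinase gene, was at 31.8 to 33.2 CPM in low and 35.2 to 37.6 CPM in high libraries, without overlap (difference -0.18, limma adjusted p = 0.627).

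**Figure D4:**
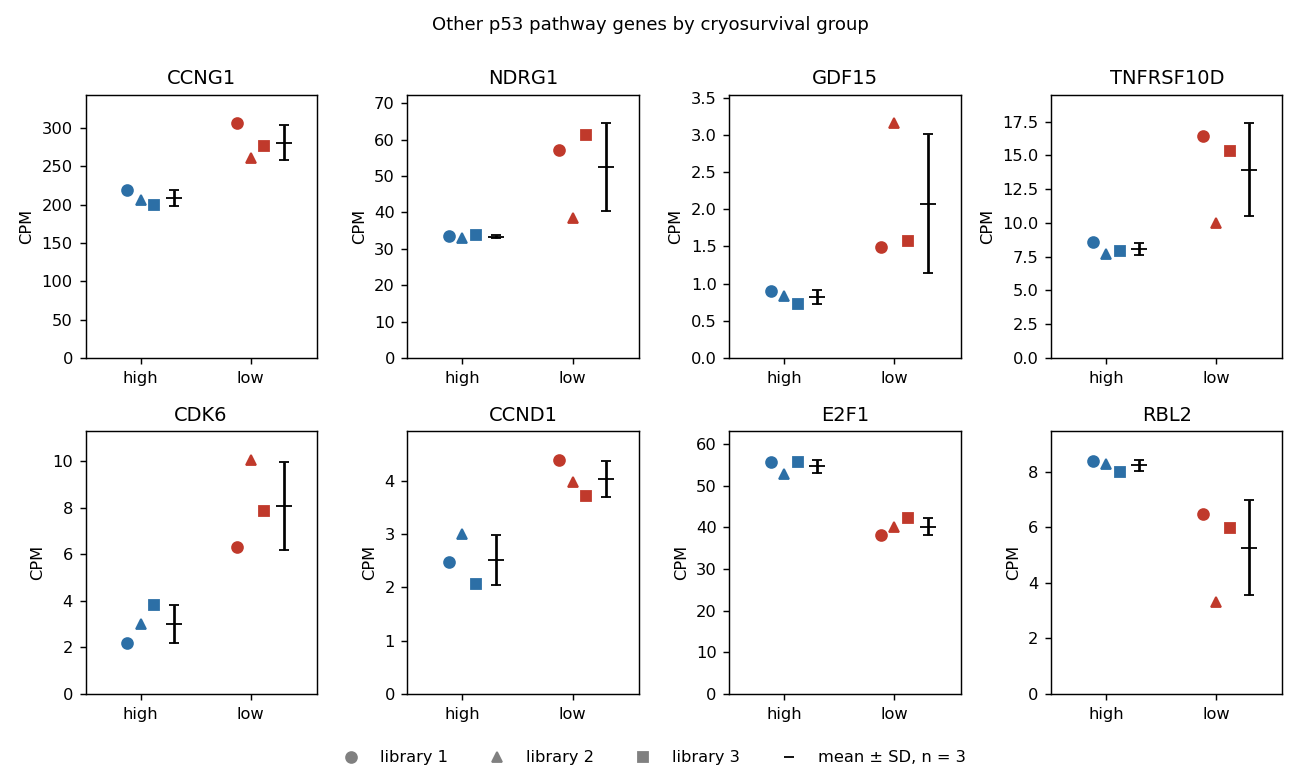
CPM of 8 other p53 pathway genes in each library (points, shape by library number; high cryosurvival blue, low cryosurvival red), with the mean and SD of 3 libraries per group; each axis starts at 0. Low library 2 is nearest to the high group in NDRG1 (38.6 CPM) and TNFRSF10D (9.99 CPM) and farthest from it in GDF15, CDK6 and RBL2, while E2F1 is tight in both groups.

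The genes most like CDKN1A over the 6 libraries were sought among 7941 genes of at least 5 CPM on average, by the root mean square distance between log2(CPM + 1) profiles centred on their own means. CLU, which encodes the secreted chaperone clusterin, was nearest, at a distance of 0.107 against a median of 0.619 over these genes. HSD3B7, a bile acid synthesis enzyme gene (0.137), PTRF, which encodes the caveolar protein cavin-1 (0.151), CTGF, a secreted matrix protein gene (0.164), and SGMS2, a sphingomyelin synthase gene (0.175), followed. CLU was at 34.0 to 36.2 CPM in low and 14.1 to 16.0 CPM in high libraries, and CTGF at 87.1 to 97.0 CPM in low and 49.6 to 52.3 CPM in high libraries. Among the members PLK2 was nearest to CDKN1A, at 0.138, with 2 other genes nearer. MDM2 (0.420), GADD45A (0.435), GADD45B (0.509) and PERP (0.522) were farther away, with 404, 493, 1315 and 1563 other genes nearer than they were. The group difference was not removed from these profiles, so genes with a difference near that of CDKN1A lie near it by construction. Because the members were chosen with this contrast in view, their distances support nothing by themselves.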

How the data were processed

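RNA of 6 libraries of in vitro produced bovine blastocysts, 3 of high and 3 of low cryosurvival by their labels, was compared. Per the labels' protocols, RNA was column-purified and treated with DNase, RNA integrity numbers were 7.7 or above, and the NEBNext Ultra II kit was used for library preparation. The submitters' processing notes name HTSeq 0.5.4p2, DESeq 1.12.1, TopHat2 2.0.8, SAMtools 0.1.18, Cufflinks 2.1.1 and Bowtie2 2.1.0, without roles. Not given in the sources used here are the genome build, the annotation, strand use and the filter on low genes. No coordinates are therefore printed, and reads of overlapping or antisense genes were not told apart. The authors' deposited table holds CPM, log2 folds, p-values and adjusted p-values with 3 decimals for 9537 genes. Its fold is high over low and was turned here. In each library 100% of the values up to 1000 CPM lay within 0.05 read of a multiple of that library's own step, from which reads were recovered. The summed CPM divided by the scaled library size was 0.961 to 0.996 in 5 libraries and 1.10 in low library 2.

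The groups' log2(CPM + 1) values were fitted over all genes with limma 3.58.1 (R 4.3.3), with no covariate and Benjamini-Hochberg adjustment at 0.05. The pseudocount of 1 understates changes of low genes. A permutation of 3 against 3 libraries cannot give a p below 0.1, so none was made. The members and the lists were chosen with earlier results of these data known. Named genes are the members, TP63, the 5 genes nearest to CDKN1A and, per list, the 2 genes with the highest mean CPM and up to 2 per direction with the largest difference among called genes or, with none called, among genes whose groups do not overlap; some genes of the rule and lists are not reported here. Alternatives were pseudocounts of 0.1 and 5, a minimum mean of 5 CPM, median scaling, each library left out, the replicate number as a block, and voom. The planned edgeR and DESeq2 tests on recovered reads were not run; voom on those reads took their place.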

Additional observations from a re-analysis of the deposited data

How the results depend on the processing

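The limma count of 0 genes rose to 7 with a pseudocount of 0.1 and to 7 with a minimum mean of 5 CPM, and lay between 0 and 1300 when single libraries were left out; the 1300 came without low cryosurvival library 2. The pathway lists had 0 called genes, and 0 to 15 with each library left out, 15 without low library 2. With the replicate number as a block 0 genes and 0 pathway genes were called. Deviations from the group mean of same-numbered libraries correlated across genes at 0.12, -0.26 and -0.31, and no library correlated best with its own number. Since deviations within a group depend on each other and low library 2 stood apart, these values cannot decide whether the numbers mark pairs. Medians of log2 differences lay, when single libraries were left out, from -0.14 to 0.041 for p53 regulators, from 0.11 to 0.24 for other growth arrest targets, from -0.059 to 0.00099 for repair and metabolism targets and from -0.088 to 0.092 for stress kinases. They lay from -0.19 to 0.28 for desmosome partners, from 0.02 to 0.28 for apoptosis targets and from -0.13 to -0.036 for cell cycle genes. The growth arrest median was 0.16 with a pseudocount of 5. The cause of these moves was not tested. CDKN1A, PLK2, MDM2, GADD45A and GADD45B had a positive difference under every alternative run, and PERP under every one except without low library 2. Median scaling moved the median of all genes to 0.008. Voom was chosen after the data were seen; the planned edgeR and DESeq2 tests were not run. Reads were few for GDF15, TP63 and CCND1. They were also few for CDK6 in high libraries 1, 2 and 3 (39, 57 and 69) and for RBL2 in low library 2 (44). The 3 libraries per group limit every difference.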
